A study of Homo sapiens with 6 samples.

Results

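Carbonic anhydrases are zinc enzymes that interconvert carbon dioxide and water with bicarbonate and a proton, and the 8 genes described here are CA2, CA3, CA5B, CA8, CA9, CA11, CA12 and CA13. They were taken by name as rows of the deposited gene count table, 8 of its 78932 listed genes. The human family holds 15 genes, and the other 7 are given briefly. RNA sequencing gave gene-level values for 6 libraries with the label A549, a line established from a human lung adenocarcinoma: 3 labelled wild type and 3 labelled as overexpressing HIF-1β after transfection. The labels name no vector, clone or control transfection, and the treatment field of the wild-type libraries reads the same as that of the others. All cells were grown in RPMI medium with 10% serum at 37 °C in 5% CO2, and no low-oxygen exposure is given. Whether the replicates of a group were grown as separate cultures is not stated, and the p-values below thus reflect the spread among these 6 libraries, which could be technical.

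The family members differ in where they sit in the cell. CA9 and CA12 are anchored in the plasma membrane with the catalytic domain outside, where they help tumour cells to handle acid. CA2, CA3 and CA13 are cytosolic, and CA5B is mitochondrial. CA8 and CA11 are carbonic anhydrase-related proteins, which have the fold but lack the activity. CA9 is a classical target of HIF-1, the hypoxia-inducible factor made of HIF-1α and HIF-1β, and CA12 is also known to be raised by low oxygen in many tumour cells. HIF-1β, encoded by ARNT, is the subunit that HIF-1α and HIF-2α need to bind DNA.

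HIF dimers bind a short core sequence, ACGTG or GCGTG, so the bases before the start of the members are shown first. RefSeq start sites on GRCh38.p14 were available for 3 members, CA9, CA12 and CA5B. Each line holds the 250 bases before the start, 5′ to 3′ on the gene's strand, and capitals mark every ACGTG or GCGTG on that strand, or its complement (CACGT or CACGC) where the core lies on the other strand. The windows are chr9:35673678-35673927 (plus strand) for CA9, chr15:63381847-63382096 (minus strand) for CA12 and chrX:15738020-15738269 (plus strand) for CA5B.
CA9: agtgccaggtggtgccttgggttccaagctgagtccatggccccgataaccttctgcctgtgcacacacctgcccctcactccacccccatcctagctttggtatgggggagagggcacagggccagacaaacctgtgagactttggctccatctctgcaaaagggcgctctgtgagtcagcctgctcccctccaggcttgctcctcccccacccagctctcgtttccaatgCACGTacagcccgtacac
CA12: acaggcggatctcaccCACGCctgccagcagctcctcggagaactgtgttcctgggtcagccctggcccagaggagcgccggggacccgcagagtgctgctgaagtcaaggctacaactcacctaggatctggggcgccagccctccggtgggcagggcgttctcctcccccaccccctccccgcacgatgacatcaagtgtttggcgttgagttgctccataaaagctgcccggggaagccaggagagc
CA5B: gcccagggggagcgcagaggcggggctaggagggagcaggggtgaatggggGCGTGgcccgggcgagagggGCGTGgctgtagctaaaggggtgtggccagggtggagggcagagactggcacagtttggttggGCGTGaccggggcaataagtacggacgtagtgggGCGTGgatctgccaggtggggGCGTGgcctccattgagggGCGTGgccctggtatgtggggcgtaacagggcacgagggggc
The CA9 window held 1 ACGTG, on the other strand, 18 to 14 bases before the start, and no GCGTG. In the CA12 window there was no ACGTG and 1 GCGTG on the other strand, 234 to 230 bases before the start. The CA5B window held 6 GCGTG, all on the gene's strand, and no ACGTG. Among 35116 such windows over all genes, 18.5% held ACGTG and 32.2% held GCGTG on either strand. These matches describe letters and not binding, and GENCODE release 29 places the outermost start of all 3 genes further upstream.

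The group labels were checked on ARNT and on known features of A549 before the members were compared. Levels are CPM, read counts scaled to a common library size after TMM scaling over tested genes, given as mean ± SD over 3 libraries with the overexpression-labelled group first. ARNT was at 139 ± 8.30 against 43.7 ± 5.67 CPM, in the direction of the labels. A difference of at least this size was seen in 24.57% of tested genes, so ARNT alone cannot settle the label. A549 is known to have lost MTAP together with CDKN2A and CDKN2B; MTAP was at 0.400 ± 0.234 CPM in the overexpression-labelled libraries but at 78.1 ± 5.01 CPM in those labelled wild type, while CDKN2A and CDKN2B had no reads in any library. The wild-type-labelled libraries therefore went against their cell line label at MTAP, and every direction below is a difference between the libraries as labelled. Of the 9 A549 features checked, 7 were tested, with 5 higher and 2 lower. Calls are common here, at 74% of all tested genes. Epithelial KRT7 was at 1481 ± 94.6 against 9.45 ± 3.79 CPM and SMARCA4, which A549 carries in mutated form, at 15.6 ± 1.83 against 201 ± 4.33 CPM. The difference was thus not confined to MTAP: ALDH1A1 was at 8835 ± 741 against 57.4 ± 14.6 CPM, and EPCAM had 211 reads against 1. These features differ between the same groups as the overexpression label, so the parts of each cannot be told apart in this design. Whether the difference of cell line features plays a part in any result on the carbonic anhydrases was not tested. Of genes typical of red blood cells, which are rich in CA1 and CA2, ALAS2 and SLC4A1 had 0 reads in all libraries, HBA1 and HBB had 2 reads each in the overexpression-labelled group, and HBA2 had 5 reads against 18; none of them passed the filter. The 6 endothelial markers summed to at most 0.243 CPM, and PTPRC and CD3E of immune cells had 0 reads. Fibroblast markers summed to between 7.98 and 8.63 CPM in the overexpression-labelled libraries and between 12.7 and 17.4 CPM in the others, with COL1A2 at 0 reads. Its 3 tested genes were all called, in opposite directions, COL1A1 higher at 8.14 ± 0.337 against 0.828 ± 0.294 CPM, and COL3A1 (1 read against 789) and PDGFRB (3 reads against 56) lower. The immune list summed to between 34.98 and 42.0 against 15.9 and 16.5 CPM, and both tested genes were higher, CD68 by 2.10-fold at 33.0 ± 4.01 against 15.7 ± 0.397 CPM and CD14 by 13.9-fold with 408 reads against 25. The part of these markers in the results below was not tested. In bulk RNA, fewer cells of a type and less RNA per cell cannot be told apart.

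The membrane-bound CA9 and CA12 were far higher in the overexpression-labelled libraries. The acatalytic CA11 and, less securely, CA8 were also higher, and cytosolic CA2 and mitochondrial CA5B were lower. CA13 did not pass the test, and CA3 had 2 reads in all. Of the 8 members, 7 had enough counts to be tested, and 6 of these were called, 4 higher and 2 lower (edgeR quasi-likelihood test, Benjamini-Hochberg adjusted p below 0.05). Among all 16091 tested genes 74.0% were called, 38.3% higher and 35.7% lower, so a call is common here and the members' count lies near that background. Group ranges did not overlap for the same 6 members, against 77.3% of all tested genes. The median log2 fold change was 0.51 over the 7 tested members and 0.034 over all tested genes, each describing a mixture of opposite changes. Without regard to sign, the median size over all tested genes was 0.71. CA8 (0.51) and CA13 (-0.40) differed by less than that, and CA5B (-0.85) by little more.

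**Figure D1:**
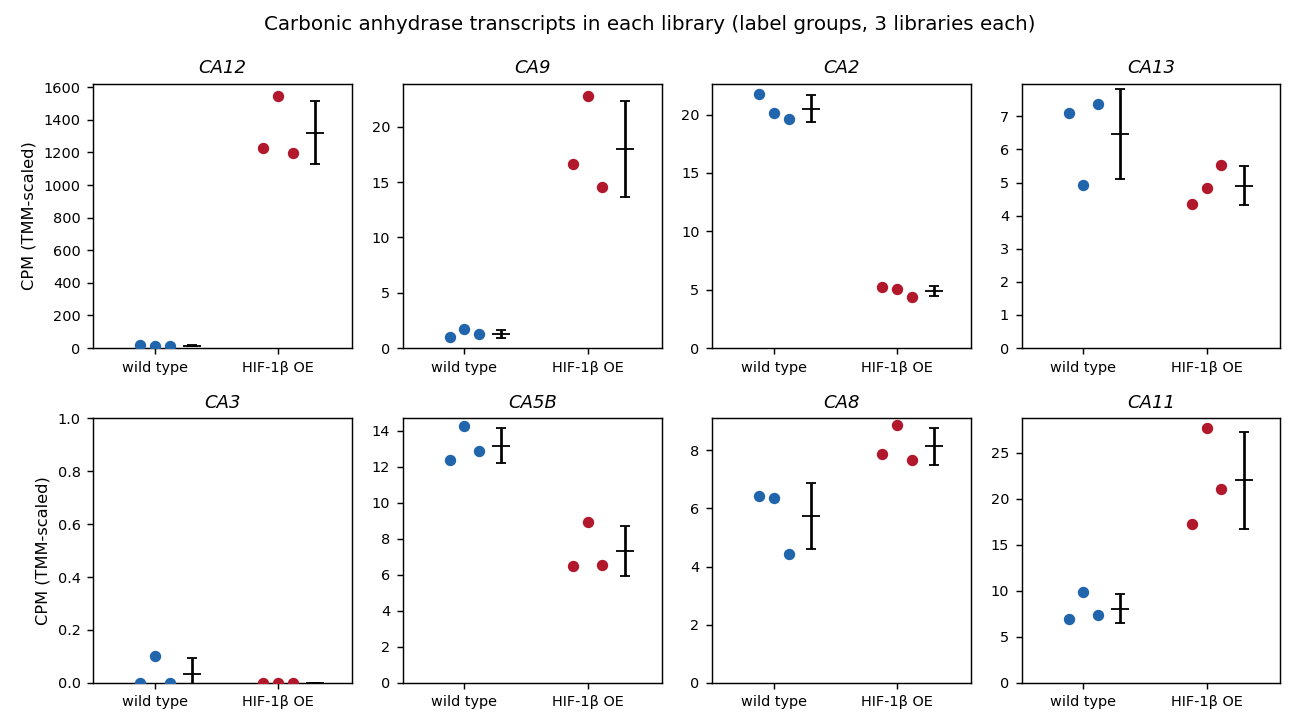
CPM of the 8 carbonic anhydrases in each library, 1 panel per gene with its own linear axis from 0; points are libraries in replicate order and bars the mean ± SD of 3 libraries. CA12 reached 1194 to 1545 CPM in the overexpression-labelled libraries against 11.5 to 17.5 CPM in those labelled wild type, whereas CA2 was at 4.40 to 5.24 against 19.6 to 21.8 CPM and the CA13 ranges overlapped.

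CA12, the membrane-bound carbonic anhydrase XII (ENSG00000074410; GRCh38 chromosome 15, 63321378 to 63382161, minus strand), showed the widest difference of the family. It was at 1224, 1545 and 1194 CPM in overexpression-labelled libraries 1 to 3 and at 17.5, 11.5 and 13.7 CPM in wild-type-labelled libraries 1 to 3. The groups were far apart, with the lowest overexpression-labelled library well above the highest wild-type-labelled one. The difference was 92.8-fold (log2 fold change 6.54, SE 0.17, adjusted p = 1.46e-10), from 89962 against 840 reads summed over each group. A difference of at least this size was seen in 5.90% of tested genes. For the other members the same share was larger: CA9 11.75%, CA2 20.45%, CA11 27.64%, CA5B 43.63%, CA8 61.53% and CA13 68.93%. By CPM, CA12 ranked 62 of 16091 tested genes in the overexpression-labelled group and 8748 in the wild-type-labelled group. Its nearest tested neighbours were also higher: APH1B, which encodes a γ-secretase subunit, 3.41-fold at 23.9 ± 2.30 against 7.02 ± 1.12 CPM, and the noncoding LINC02568 18.7-fold at 1.54 ± 0.489 against 0.0822 ± 0.108 CPM. The wild-type-labelled level of LINC02568 rested on 5 reads, 4 of them in replicate 2, without which its log2 fold change moved from 4.11 to 5.66.

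CA9, the tumour-associated carbonic anhydrase IX (ENSG00000107159; chromosome 9, 35673856 to 35681159, plus strand), was higher by a smaller factor and from a low level. Its CPM was 16.7, 22.8 and 14.5 in overexpression-labelled libraries 1 to 3 and 0.971, 1.69 and 1.26 in the wild-type-labelled ones. All overexpression-labelled libraries lay above all others. The ratio was 13.8-fold (log2 fold change 3.77, SE 0.25, adjusted p = 1.79e-07), and the wild-type-labelled group rested on 79 reads in total. CA9 ranked 8229 by CPM in the overexpression-labelled group, near the middle of tested genes, whereas CA12 was among the most abundant. ARHGEF39, a gene on the opposite strand, overlaps the first part of CA9 and shares 643 exonic bases with it. ARHGEF39 was 5.59-fold higher, at 43.9 ± 3.44 against 7.85 ± 0.643 CPM, and reads in the shared part could belong to either gene, since no source used here says whether strand was used in counting. TPM2, a tropomyosin gene on the other side of CA9, was 1.83-fold higher.

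Within a library, CA12 exceeded CA9 by a wider margin where both were high. The log2 ratio of CA12 to CA9 CPM was 6.21 ± 0.140 in the overexpression-labelled libraries and 3.46 ± 0.700 in those labelled wild type (SD, n = 3), with no overlap. An exact permutation test of the group means, two-sided, gave p = 0.1, the smallest that 3 against 3 libraries allow. The same test gave the same p for each of the 6 member ratios computed, so none of them could pass a threshold of 0.05.

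CA2, the fast and widespread cytosolic carbonic anhydrase II (ENSG00000104267; chromosome 8, 85463852 to 85481493, plus strand), went the other way. It was at 5.24, 5.08 and 4.40 CPM in overexpression-labelled libraries 1 to 3 and at 21.8, 20.1 and 19.6 CPM in wild-type-labelled libraries 1 to 3. Both groups were tight, with coefficients of variation of 9.08% and 5.49%, and well separated. CA2 was 4.18-fold lower (log2 fold change -2.06, SE 0.13, adjusted p = 1.31e-07). Relative to CA9 in the same library, the log2 ratio of CA9 to CA2 moved from -4.01 ± 0.458 in the wild-type-labelled group to 1.85 ± 0.274 in the overexpression-labelled group. The antisense transcript CA3-AS1, whose gene overlaps the start of CA2 without sharing exonic bases, was also lower, at 0.220 ± 0.0860 against 0.866 ± 0.0153 CPM (adjusted p = 0.0021). WWP1, a ubiquitin ligase gene and the nearest tested gene on the far side, did not pass, at 60.8 ± 5.10 against 62.1 ± 3.70 CPM.

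CA13 and CA3, the other cytosolic members, lie in the same cluster on chromosome 8. CA13 (ENSG00000185015; 85220587 to 85284073, plus strand) was at 4.34, 4.85 and 5.52 CPM in the overexpression-labelled libraries and at 7.10, 4.91 and 7.37 CPM in the wild-type-labelled ones. Wild-type-labelled library 2 lay within the range of the other group, so the groups overlapped. The log2 fold change was -0.40 (SE 0.21, adjusted p = 0.104); without wild-type replicate 2 it was -0.57 and passed (adjusted p = 0.0232), while the adjusted p under the other alternatives lay between 0.0978 and 0.272. A noncoding gene on the opposite strand, AC011773.3, shares 191 exonic bases with CA13 and had 0 reads against 0. RBIS, a ribosome biogenesis gene that lies just before CA13 on the other strand, was 2.04-fold higher. CA3, a muscle isoform of low activity (ENSG00000164879; 85373436 to 85449040, plus strand), had 2 reads in wild-type-labelled library 2 and 0 in the other libraries. Both groups were at or under a floor of 3 summed counts, which stands for 0.0439 CPM in the overexpression-labelled and 0.0501 CPM in the wild-type-labelled group and covers counting error only, so no fold is given.

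CA5B, the mitochondrial carbonic anhydrase VB that supplies bicarbonate to mitochondrial carboxylases (ENSG00000169239; chromosome X, 15688830 to 15788409, plus strand), was moderately lower. Its CPM was 6.48, 8.92 and 6.56 in overexpression-labelled libraries 1 to 3 and 12.4, 14.3 and 12.9 in wild-type-labelled libraries 1 to 3. The groups did not overlap, although overexpression-labelled library 2 stood above its 2 partners. CA5B was 1.80-fold lower (log2 fold change -0.85, SE 0.16, adjusted p = 0.000669). It has a near-identical pseudogene copy, CA5BP1, so its own count is uncertain. The copy (ENSG00000290746) was 1.57-fold lower at 10.3 ± 0.367 against 16.1 ± 0.268 CPM. A further entry of the copy (ENSG00000186312), which shares 29 exonic bases with CA5B on the same strand, had 4 reads against 2. The gene INE2 on the opposite strand shares 1874 exonic bases with CA5B and had 0 reads against 0. With the counts of CA5B and both CA5BP1 entries summed, the log2 fold change was -0.73 (adjusted p = 2.21e-05). ZRSR2, a splicing factor gene that follows CA5B on the chromosome, was 1.73-fold lower at 6.81 ± 0.133 against 11.8 ± 0.370 CPM, and CLTRN before it had 43 reads against 2, an 18.8-fold ratio (counting interval 4.91 to 161). Both CLTRN reads were in wild-type replicate 3, without which the fitted log2 fold change moved from 4.03 to 6.72.

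The acatalytic members were both higher, CA11 clearly and CA8 narrowly. CA11, a secreted protein (ENSG00000063180; chromosome 19, 48637942 to 48646312, minus strand), was at 17.3, 27.7 and 21.0 CPM in the overexpression-labelled libraries and at 6.98, 9.82 and 7.37 CPM in the wild-type-labelled libraries. Replicate 2 was the highest in each group, and the ranges were apart. The ratio was 2.73-fold (log2 fold change 1.45, SE 0.19, adjusted p = 4.37e-05). DBP, a clock-controlled transcription factor gene just beyond the 3′ end of CA11, was 5.35-fold higher at 9.45 ± 1.07 against 1.77 ± 0.105 CPM, and MAMSTR on the other side was 4.35-fold higher at 1.22 ± 0.400 against 0.281 ± 0.284 CPM. Of 15 wild-type-labelled MAMSTR reads 10 were in replicate 1, without which its log2 fold change moved from 2.21 to 3.32. CA8, which binds the inositol trisphosphate receptor ITPR1 (ENSG00000178538; chromosome 8, 60187347 to 60281412, minus strand), was at 7.86, 8.87 and 7.68 against 6.43, 6.34 and 4.44 CPM. The CA8 ranges did not overlap, but the gap was narrow and wild-type-labelled library 3 stood below its partners. Its ratio was 1.42-fold (log2 fold change 0.51, SE 0.19, adjusted p = 0.0296), but leaving out overexpression replicate 1 (adjusted p = 0.0605), overexpression replicate 2 (0.0927) or wild-type replicate 3 (0.119) removed the call. RAB2A, a membrane traffic gene on the side of higher coordinates, was 1.90-fold higher. The nearest tested gene on the other side, the noncoding TOX-DT, ends at 59121346 and was 3.98-fold lower, from only 12 reads against 41.

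**Figure D2:**
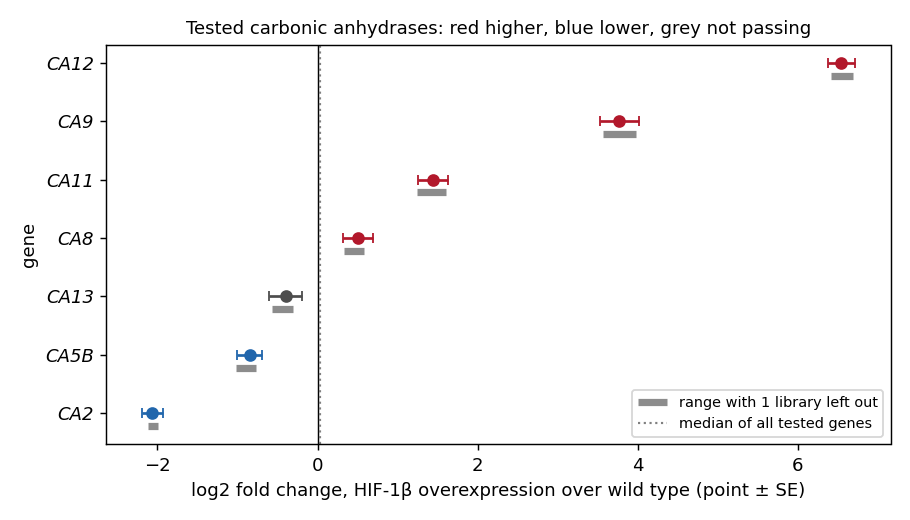
Log2 fold changes (edgeR, point ± SE, 3 libraries per group) of the 7 tested carbonic anhydrases, with grey bars for the range when 1 library is left out and a dotted line at the median of all tested genes, 0.034. CA12 at 6.54 and CA9 at 3.77 stand far to the right, CA2 at -2.06 to the left, and the CA8 and CA13 values lie closest to 0.

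Per length of annotated exon, the order of the members changed between the groups. Levels were divided by the union of GENCODE 29 exons, a length that counts every annotated isoform. In the overexpression-labelled libraries CA12 led at 181 ± 26.6 CPM per kb, followed by CA9 at 10.8 ± 2.57 and CA11 at 10.6 ± 2.54, which overlapped each other. CA2 came next at 2.31 ± 0.210, then CA8 at 1.41 ± 0.111, and CA13 at 0.887 ± 0.107 and CA5B at 0.859 ± 0.162 overlapped. In the wild-type-labelled libraries CA2 led at 9.66 ± 0.530 CPM per kb, ahead of CA11 at 3.88 ± 0.743. CA12 at 1.95 ± 0.413 overlapped with CA5B at 1.55 ± 0.116, CA13 at 1.17 ± 0.244 with CA8 at 0.992 ± 0.195, and CA8 with CA9 at 0.782 ± 0.216. CA2 thus led in one group and CA12 in the other.

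Summed over all 15 family genes, the transcripts came to 1386 ± 206 CPM in the overexpression-labelled and 69.6 ± 3.26 CPM in the wild-type-labelled libraries. Without CA12 the remaining 14 genes came to 65.3 ± 11.3 against 55.4 ± 2.25 CPM. CA12 held 95.3% ± 0.162 of the family's counts in the overexpression-labelled libraries and 20.4% ± 3.61 in the wild-type-labelled ones, whereas CA2 held 0.357% ± 0.0483 and 29.5% ± 0.320. Counts favour long transcripts. Per kb of exon, CA12 held 87.1% ± 0.536 and 9.73% ± 2.02 in the same order, and CA2 1.13% ± 0.157 and 48.3% ± 2.06. By that measure CA11 held 5.08% ± 0.627 and 19.4% ± 3.35. CA9's share of counts was 1.29% ± 0.123 and 1.89% ± 0.560 (exact permutation test, two-sided, p = 0.2), although its own level was higher. Taken per kb of exon, the CA9 share went the other way, at 5.16% ± 0.477 and 3.90% ± 1.04 in the same order. The exact permutation test, two-sided, gave p = 0.2 there too, and the group ranges overlapped by both measures. The remaining 7 genes, CA1, CA4, CA5A, CA6, CA7, CA10 and CA14, all failed the filter; CA1, CA5A, CA6 and CA7 had 0 reads, and the most read was CA14, with 5 reads in the wild-type-labelled group.

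**Figure D3:**
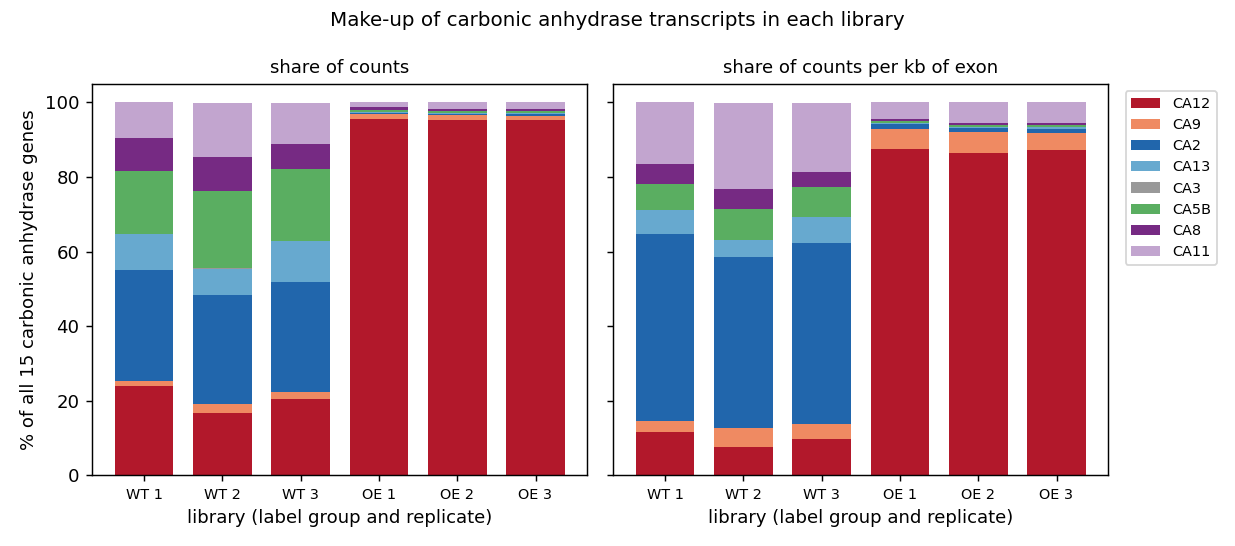
Stacked bars of the share of each carbonic anhydrase among all 15 family genes in each library, by counts (left) and by counts per kb of exon (right), in percent. CA12 fills 95.3% of counts on average in the overexpression-labelled libraries (OE), while CA2, CA5B and CA12 together make up most counts of the wild-type-labelled ones (WT). Per kb, CA12 fills 87.1% in OE, and CA2 at 48.3% and CA11 at 19.4% lead in WT.

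Genes whose centred profile over the 6 libraries was most like that of a member were sought by the root mean square difference of log2(CPM + 0.1). CA12 was closest to IGFBP4, an insulin-like growth factor binding protein gene, at a difference of 0.0877; IGFBP4 was at 3564 ± 343 against 38.5 ± 5.34 CPM. CA9 was closest to GPR162 (0.0914; 4.08 ± 1.09 against 0.230 ± 0.120 CPM) and CA11 to CPEB2 (0.0978). The nearest profiles to CA2 were those of CHPF (0.0581) and RNF41 (0.0672), and those to CA5B were LYSMD3 (0.0402) and IGSF1 (0.0555). CA8 was nearest to TTC9C (0.0496) and CA13 to ACADSB (0.0842). With 6 libraries in 2 groups, such likeness mostly records a group difference of the same size.

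Enzymes of bicarbonate and acid handling work alongside the carbonic anhydrases, and lists of them were counted in the same fit. Over all tested genes 74% were called, 38.3% higher and 35.7% lower. Counts of calls in this and the following lists stand beside that background, and no list was tested as a set. Among 15 bicarbonate transporters, 9 were tested, 6 of them higher and 3 lower, with a median log2 fold change of 1.15. SLC4A4, a sodium-bicarbonate cotransporter, had 1145 reads in the overexpression-labelled group against 2, a 502-fold ratio (counting interval 139 to 4148, 95%). Both of the latter reads were in wild-type replicate 3; without it the fitted log2 fold change moved from 8.75 to 11.45, a value against 0 reads that depends on the prior count. SLC4A8 was 24.1-fold higher at 6.84 ± 0.517 against 0.284 ± 0.0251 CPM, and SLC4A5 20.1-fold higher at 1.25 ± 0.421 against 0.0620 ± 0.0545 CPM. The abundant anion exchanger gene SLC4A2 was instead 1.68-fold lower at 268 ± 39.3 against 449 ± 18.6 CPM, and SLC4A7 1.33-fold lower. Of 5 genes for channels that can pass carbon dioxide none reached the filter. RHCG, picked after its values were seen, had 35 reads against 0.

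Proton and lactate exporters split evenly, with 9 of 13 tested, 4 higher, 4 lower and 1 not passing, and a median log2 fold change of 0.38. SLC16A7, the lactate transporter MCT2, was 22.8-fold lower at 7.22 ± 1.74 against 165 ± 5.25 CPM. SLC16A3, the lactate exporter MCT4 and itself a known HIF-1 target, was 6.53-fold higher at 37.1 ± 8.10 against 5.68 ± 2.21 CPM. Chaperones of these transporters differed in direction, EMB 6.94-fold higher and BSG 1.27-fold lower at 611 ± 10.6 against 775 ± 75.03 CPM. In the vacuolar proton pump, 21 of 24 subunit genes were tested, 6 higher, 9 lower and 6 not passing (median -0.17). The balance was 7 higher and 7 lower with library totals and 6 higher and 11 lower with the replicate block. ATP6V1E2 was 3.66-fold higher. ATP6V1G2 was 12.2-fold higher from 5 reads, 4 of them in wild-type replicate 3, without which its log2 fold change moved from 3.40 to 4.76. ATP6AP1 was 2.48-fold lower at 88.2 ± 1.32 against 219 ± 19.1 CPM. ATP6V0E2 differed least and did not pass, at 42.7 ± 5.77 against 41.0 ± 6.48 CPM.

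Carboxylases that use bicarbonate, several of them in the mitochondrion with CA5B, went both ways, 4 of 9 being higher and 4 lower, while 1 did not pass (median -0.20). CPS1, the mitochondrial enzyme that makes carbamoyl phosphate, was 3.73-fold lower at 617 ± 149 against 2300.4 ± 94.2 CPM. ACACB, an acetyl-CoA carboxylase, was 2.27-fold higher and MCCC1 1.99-fold higher. CAD, of pyrimidine synthesis, did not pass (adjusted p = 0.079); it passed with no filter on low counts (0.0165) and without wild-type replicate 3 (0.0372). Among 8 acid-sensing receptors and channels 4 were tested, 3 higher and 1 lower. GPR65, a proton-sensing receptor, had 0 reads in the overexpression-labelled libraries against 128 ± 5.82 CPM, at least 2922-fold lower. GPR132 had 50 reads against 3, a 14.6-fold ratio (counting interval 4.72 to 73.2), and its log2 fold change moved from 3.73 to 4.602 without wild-type replicate 2. ASIC3, an acid-sensing ion channel, was 3.61-fold higher and ASIC1 1.48-fold higher.

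Known partners of the acatalytic members were tested too, 5 of 6, with 2 higher and 3 lower. With the replicate block 1 was higher and 3 lower, since NRXN2 (log2 fold change 1.07, adjusted p = 0.019) no longer passed (adjusted p = 0.0574); it also lost its call without overexpression replicate 2 (0.0923) or wild-type replicate 2 (0.0642). ITPR1, the receptor that CA8 binds, was 6.95-fold lower at 10.2 ± 0.309 against 70.9 ± 13.4 CPM, opposite in direction to CA8. ITPR2 was 2.42-fold lower; ITPR3 was 1.15-fold lower (adjusted p = 0.0185) but did not pass when library totals set the scale (0.253) or without overexpression replicate 1 (0.059) or 3 (0.0693). NRXN3, of the neurexin family to which CA11 can bind, was 4.45-fold higher at 8.50 ± 0.647 against 1.91 ± 0.233 CPM. Of the HIF subunits, EPAS1 (HIF-2α) and HIF1A (HIF-1α) were also higher, the first at 383 ± 20.1 against 151 ± 7.41 CPM and the second at 457 ± 38.4 against 286 ± 11.8 CPM. MTAP differed between the same groups, as given above.

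**Figure D4:**
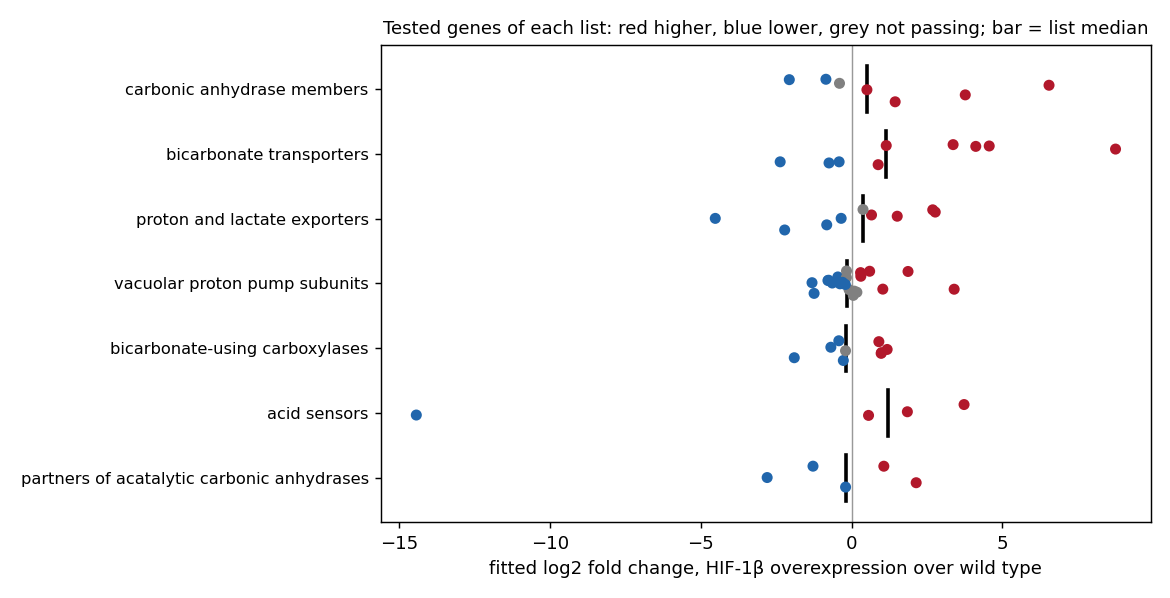
Fitted log2 fold changes of the tested genes of each list, 1 point per gene (red higher, blue lower, grey not passing) with the list median as a black bar; vertical scatter only separates points. All 7 lists shown hold points on both sides of 0; the far-left acid sensor is GPR65, whose group of 0 reads makes its fitted value dependent on the prior count.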

How the data were processed

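RNA sequencing counts of 6 libraries in 2 label groups of 3 were analysed. The values are estimated counts, which the authors made with salmon and merged per gene, going by the deposited table's name; bcl2fastq 2.20 and GRCh38 are named in the submitters' processing notes. Not given in the sources used here: salmon's version, its annotation and its strand setting. The labels name polyA RNA but also a stranded kit for total RNA that depletes ribosomal RNA. A further 6 columns of per-sample values could be tied to no listed sample and were left aside. At most 9.51% of a library's values were fractional (tolerance 1e-06), and all were rounded. Library totals were 17192161 to 24454236 counts.

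Genes passing filterByExpr (smallest count 10) were tested with edgeR 4.0.16 (quasi-likelihood F test, TMM, no replicate term), adjusted over all 16091 tested genes. SE is the log2 fold change divided by the square root of F. Folds are ratios of group mean CPM; with 0 reads in a group they are bounds from 3 summed counts, and with 1 to 3 reads count ratios with exact 95% intervals, which cover counting error only. Symbols matched 77.9% of IDs, and positions came from GENCODE 29. DESeq2 1.42.0, other scalings and filters, a replicate block and left-out libraries were alternatives.

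The batch field equals the replicate number, so numbers pair libraries by that field. The main fit has no term for this pairing, and the replicate block was run as an alternative. Deviations from group means correlated by 0.0013 to 0.096 for same numbers and by -0.070 to 0.047 for different ones over all tested genes. Over genes above the median level the values were 0.157 to 0.283 and -0.233 to -0.033. Centring within each group ties same-number and different-number values to each other, so their contrast is not independent evidence of pairing. Libraries of a group differed beyond sampling noise (chi-square over its degrees of freedom 6.03 to 15.8). The steps were tested on simulated counts in which only a small share of genes changed. These libraries differ from that setting, with 74% of tested genes called, so the simulation cannot vouch for the scaling here.

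The members and lists were chosen with earlier results of these data known. Named genes were the members, the rest of the family, in each list the 3 called genes of largest change, the most abundant called gene and the gene nearest to 0, and the nearest neighbours and profiles.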

Additional observations from a re-analysis of the deposited data

How the results depend on the processing

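CA12, CA9, CA11, CA5B and CA2 kept their direction and their call under library totals, DESeq2 size factors, DESeq2, no filter, a filter at 1 CPM in 3 libraries, the replicate block and every left-out library. Library totals shifted the overall median from 0.034 to 0.15 on the log2 scale, took CA13 to -0.29 and CA8 to 0.62, and gave 6817 higher and 4993 lower calls against 6158 and 5750. The replicate block gave CA12 6.54, CA9 3.77, CA11 1.44 and CA2 -2.07 and, of the genes whose fold changes were refitted, ended only the call of NRXN2; it called 11960 genes in all against 11908. With 1 library left out, the log2 fold change of CA8 ranged from 0.33 to 0.58 and lost its call in 3 of 6 cases, and that of CA13 from -0.57 to -0.31, passing in 1. The members called ranged from 3 to 4 higher and from 2 to 3 lower. ATP6V0E2, which passed under none of these alternatives, ranged from -0.076 to 0.16 with 1 library left out, being -0.020 without overexpression replicate 1 and -0.076 without wild-type replicate 2. Of the carbon dioxide channels, none of which reached the filter for edgeR, 1 was called with no filter and 0 to 1 with a library left out. WWP1, which did not pass, was at 0.083 with library totals and ranged from -0.094 to 0.040 with 1 library left out, 0.040 being without overexpression replicate 1. With no filter 5 acid sensors were higher against 3. Alternatives for the neighbours, NRXN2 and the marker genes were added after seeing the data. The cause of these changes was not tested. Depth limits CA9 in the wild-type-labelled group (79 reads), CA3 and the other 7 family genes.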
